A study of Mus musculus with 6 samples.

Results

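DOT1L and the super elongation complex are the transcription elongation machinery that MLL fusion proteins recruit. The 10 mouse genes described here encode DOT1L, its partners and the core of that complex. They were chosen by name and function rather than by their values, though with earlier results of these data known, from 46983 genes in all. Each was matched by identifier, and all 10 passed the filter on low counts, as 12292 genes did.

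Messenger RNA was sequenced from colonies that lineage-depleted bone marrow progenitors of C57BL/6 mice (postnatal week 8 to 11 per the labels) formed in semi-solid methylcellulose supplied with SCF and the interleukins IL-3 and IL-6. The harvest was on day 6 to 7. The KO group has 3 libraries and is labelled Psip1-KO, and the series design marks its allele as PsipVav/Vav. The WT group has 3 libraries and is labelled wild type, while the series design gives its mice as PsipFl/Fl, a floxed allele. The sources used here do not spell out what Vav stands for, or say that each library is a mouse of its own. P-values therefore reflect how far apart these libraries lie, and technical variation may be part of that. Psip1 encodes LEDGF, a chromatin protein that tethers MLL and menin to genes, and the series title asks whether blood formation needs it as MLL-rearranged leukaemia does.

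MLL fusions join the start of MLL to a partner, and the commonest partners are elongation proteins. P-TEFb, the kinase CDK9 with a cyclin T subunit, phosphorylates RNA polymerase II and its pausing factors so that paused polymerase moves on. AFF1 or AFF4 is the scaffold on which P-TEFb, ELL and either ENL or AF9 assemble into the super elongation complex. DOT1L methylates lysine 79 of histone H3 and binds AF10 or AF17 and also ENL or AF9. MLL-fusion leukaemia depends on DOT1L.

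Of the 6 libraries, 5 held 7056614 to 15569088 reads on genes, and WT replicate 3 held 27909 over its 2 sequencing runs. In WT replicate 3 a single read was worth 29.9 normalised CPM (read counts scaled to the TMM-adjusted library size). A count of 0 there allows up to 89.6 CPM (3 reads), for counting error only. Values of this library are given as reads, and levels below are from the 5 deep libraries. Psip1 stood at 14.8, 17.6 and 16.3 CPM in KO replicates 1, 2 and 3, against 89.3 and 70.0 CPM in WT replicates 1 and 2, with 3 reads in WT replicate 3. Its log2 fold change was -2.32 (SE 0.32, adjusted p = 0.0599 by edgeR's quasi-likelihood test with Benjamini-Hochberg adjustment), which misses the threshold of 0.05. Mitochondrial genes took 15.7% of gene reads in KO replicate 2 and 1.26% to 1.84% in the other deep libraries. In WT replicate 3 they took 9.52%.

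The colonies carried myeloid markers in both genotypes. All 12 neutrophil, 11 mast cell and basophil and 10 monocyte and macrophage markers listed passed the filter on low counts. The neutrophil markers summed to 35730 to 89700 CPM in KO and to 45270 and 100600 CPM in WT. B cell markers summed to at most 9.4 CPM and T and NK cell markers to at most 1.34 CPM in any deep library. Cd3e, a T cell receptor subunit, had 0 reads in every library.

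The promoters of the genes on which the results below turn are shown for Dot1l, for the scaffold pair Aff1 and Aff4, which varied together between libraries, and for the related pair Mllt1 and Mllt3, which differed most in level. Each is the stretch of up to 250 bases before the RefSeq start on GRCm38.p6, up to the first annotated exon, read 5′ to 3′ on the gene's strand. Capitals mark matches on either strand to 6 motifs. The letters searched were CCAAT for the box of that name, CACGTG for the E-box and GGGCGG for the GC box. TATAAA was searched for the TATA box, CGGAAG for the core bound by ETS factors and AAGATGGC for that bound by YY1. Overlapping matches were kept.
Dot1l, chr10:80754953-80755202, plus strand: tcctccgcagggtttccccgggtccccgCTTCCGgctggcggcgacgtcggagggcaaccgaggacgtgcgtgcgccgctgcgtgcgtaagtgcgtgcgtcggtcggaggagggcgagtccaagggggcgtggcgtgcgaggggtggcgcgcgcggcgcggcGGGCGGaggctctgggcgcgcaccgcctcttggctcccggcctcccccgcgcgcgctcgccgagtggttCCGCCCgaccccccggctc
Aff1, chr5:103753912-103754161, plus strand: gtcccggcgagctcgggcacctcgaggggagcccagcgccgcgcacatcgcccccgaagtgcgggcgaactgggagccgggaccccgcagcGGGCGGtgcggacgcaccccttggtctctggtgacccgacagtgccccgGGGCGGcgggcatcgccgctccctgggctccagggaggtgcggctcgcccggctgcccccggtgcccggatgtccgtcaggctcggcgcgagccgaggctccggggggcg
Aff4, chr11:53350517-53350766, plus strand: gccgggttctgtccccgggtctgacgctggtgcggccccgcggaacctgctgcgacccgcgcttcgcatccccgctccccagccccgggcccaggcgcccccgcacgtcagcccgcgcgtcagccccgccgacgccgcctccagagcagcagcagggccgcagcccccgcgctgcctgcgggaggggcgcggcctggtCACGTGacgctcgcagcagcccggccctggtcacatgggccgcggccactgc
Mllt1, chr17:56935416-56935638, minus strand: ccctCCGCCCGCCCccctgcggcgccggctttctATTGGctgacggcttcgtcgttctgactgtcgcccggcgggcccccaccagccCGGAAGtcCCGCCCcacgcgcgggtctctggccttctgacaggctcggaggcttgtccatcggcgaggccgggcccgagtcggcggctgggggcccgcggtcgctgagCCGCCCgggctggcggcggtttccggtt
Mllt3, chr4:88033408-88033657, minus strand: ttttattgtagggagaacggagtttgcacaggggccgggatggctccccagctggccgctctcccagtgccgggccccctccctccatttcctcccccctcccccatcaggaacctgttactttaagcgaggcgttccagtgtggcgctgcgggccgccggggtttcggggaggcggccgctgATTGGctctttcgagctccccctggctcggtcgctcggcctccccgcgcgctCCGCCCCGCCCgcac

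All of these stretches were rich in G and C, from 69.2% in Mllt3 to 79.2% in Aff4. All 10 genes matched the RefSeq table, and the first listed start of each was searched over its full 250 bases. The GC box was found in 8 of 10, against 32.9% of 27025 promoters, and the ETS core in 5 of 10, against 13.8%. The CCAAT box was in 3 of 10, against 34.5%. The E-box was in Aff4 alone, against 6.05%. No TATA box or YY1 core lay in any of the 10 windows, against 13% and 1.59% of all promoters. Aff1 and Aff4 shared none of the 6 motifs, and Mllt1 and Mllt3 both held the CCAAT box and the GC box. The Aff1 window lies inside the annotated gene, which starts at 103692374. Any link between motifs and levels was not tested. A match describes letters only and is not a site.

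No member passed the test between the genotypes. By edgeR 0 of the 10 passed the threshold, and none had an unadjusted p under 0.05, beside 0% of 12292 genes at the adjusted threshold and 1.45% at the unadjusted p. At an adjusted threshold of 0.1 there were likewise 0 members, beside 0.0325% of genes. The log2 fold change of KO over WT was below 0 for 5 members (48% of all genes tested) and above 0 for 5 (52%). Their median was 0.03, and that of all genes tested was 0.01. The KO and deep WT libraries overlapped for all 10 members, where 4.79% of genes had all 3 KO libraries above and 3.87% all 3 below both deep WT libraries. Fewer cells of a type and less RNA per cell cannot be told apart in these bulk samples. The spread between libraries limits what these values show. The 95% interval included 0 for all 10 members, and for 3 (Mllt1, Mllt10 and Ccnt1) it lay within 1 log2 unit on either side.

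**Figure D1:**
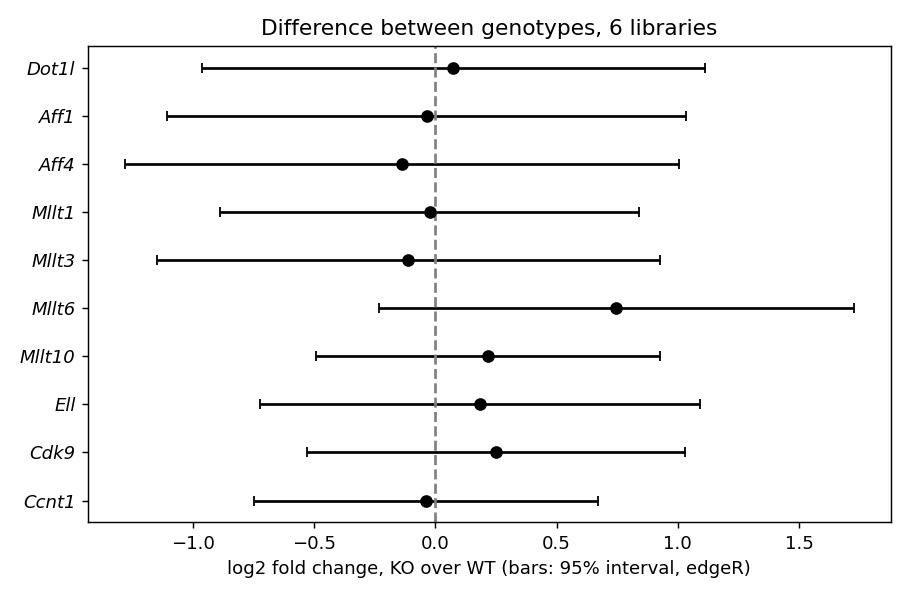
Log2 fold change of KO over WT for each gene (x axis), fitted by edgeR on 6 libraries. Points are the estimates and bars their 95% intervals, and all 10 bars cross 0, with Mllt6 farthest to the right at 0.75.

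Dot1l (ENSMUSG00000061589.14, chromosome 10, 80755206 to 80795461, GRCm38) encodes the only known H3K79 methyltransferase of mammals. It stood at 99.7, 104.6 and 151.6 CPM in KO replicates 1, 2 and 3, against 162.4 and 96.3 CPM in WT replicates 1 and 2, and WT replicate 3 held 0 reads. KO replicate 3 and WT replicate 1 were high and the other 3 deep libraries low, so the genotypes overlapped. The KO mean was 118.6 ± 28.6 CPM (SD, n = 3), and the log2 fold change was 0.07 (SE 0.47, 95% interval -0.96 to 1.11, adjusted p = 1 by edgeR). Its sign turned when WT replicate 2, WT replicate 3 or KO replicate 3 was left out, to -0.05, -0.13 and -0.13.

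Mllt10 (chromosome 2, 18055237 to 18212388) encodes AF10, which DOT1L needs for its full activity. It was the steadiest member, at 60.6, 68.2 and 70.1 CPM in KO, against 67.8 and 50.6 CPM in WT, with 1 read in WT replicate 3. The highest deep library was 1.39 times the lowest, where the median of 10168 genes with a mean of at least 5 CPM was 1.81 times. The estimate was 0.22 on the log2 scale (SE 0.32, adjusted p = 1 by edgeR), and it was 0.51 without WT replicate 1 and 0.10 without WT replicate 2. Exons of Dnajc1 on the opposite strand overlap it by 749 bases, which counting by strand keeps apart.

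Mllt6 (chromosome 11, 97663414 to 97685463) encodes AF17, a relative of AF10 that also binds DOT1L. It had the largest estimate of the 10 and the lowest p. KO replicates 1, 2 and 3 stood at 57.9, 125.4 and 93.4 CPM, against 72.5 and 46.0 CPM in WT replicates 1 and 2 and 0 reads in WT replicate 3. KO replicates 2 and 3 lay above both deep WT libraries, and KO replicate 1 lay between them. The log2 fold change was 0.75 (SE 0.45, 95% interval -0.23 to 1.73, adjusted p = 1 by edgeR). It was 1.20 without WT replicate 1 (adjusted p = 0.795 by edgeR, with an unadjusted p under 0.05). Without KO replicate 2, the deep library rich in mitochondrial reads, it was 0.46. With neither KO replicate 2 nor WT replicate 3 it was 0.35.

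Mllt1 and Mllt3 encode ENL and AF9, paralogs whose YEATS domain reads acylated histones and whose tails bind DOT1L or the AFF scaffold. Mllt1 (chromosome 17, 56892611 to 56935415) stood at 51.9, 34.8 and 57.0 CPM in KO, against 49.8 and 54.9 CPM in WT, and 0 reads in WT replicate 3. Only KO replicate 2 stood apart, on the low side. Its log2 fold change was -0.02 (SE 0.39, adjusted p = 1 by edgeR), with positive values of 0.03, 0.12 and 0.16 without WT replicate 1, WT replicate 2 or KO replicate 2. Mllt3 (chromosome 4, 87769925 to 88033364) was scarce, with 73, 64 and 137 reads in KO, against 164 and 66 reads in WT replicates 1 and 2 and 0 in WT replicate 3. In CPM these were 5.74, 10.1 and 9.04 in KO and 11.9 and 6.46 in WT. Its log2 fold change was -0.11 (SE 0.47, adjusted p = 1 by edgeR), and it was 0.47 without WT replicate 1 and 0.10 without KO replicate 1.

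Mllt1 was far above Mllt3 in every deep library. Per kilobase of exon, Mllt1 was 27.7, 10.5 and 19.3 times Mllt3 in KO replicates 1, 2 and 3, and 12.8 and 26.0 times Mllt3 in WT replicates 1 and 2. The length used is the union of exons over all annotated transcripts, 12004 bases for Mllt3 (8 transcripts) and 3918 for Mllt1 (4 transcripts). A library whose transcripts use fewer of those exons would give a lower level per kilobase. The log2 ratio of Mllt3 to Mllt1 averaged -4.15 in KO and -4.19 in the deep WT libraries. The difference of 0.04 was within the spread (exact two-sided permutation p = 1, where 3 libraries against 2 cannot go below 0.2), and it turned to -0.34 without KO replicate 2 and -0.47 without WT replicate 2.

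AF10 and AF17 were near each other in level. The ratio of Mllt10 to Mllt6 per kilobase was 1.32, 0.686 and 0.948 in KO and 1.18 and 1.39 in WT, so KO replicates 2 and 3 lay below both WT libraries and KO replicate 1 between them. The mean log2 ratio was -0.07 in KO and 0.36 in WT, a difference of -0.43 that was within the spread (exact two-sided permutation p = 0.4, smallest possible 0.2). Without KO replicate 2 it was -0.19 and without KO replicate 1 -0.67. With all 6 libraries and 0.5 reads added it was -0.95 (exact two-sided permutation p = 0.2). That value takes in WT replicate 3, which held 1 Mllt10 read and 0 Mllt6 reads. The ratio of that library rests largely on the added reads, so -0.95 is no stronger evidence of a difference. The 3 ratios were compared without adjustment, and no p of the 3 can pass the threshold.

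**Figure D2:**
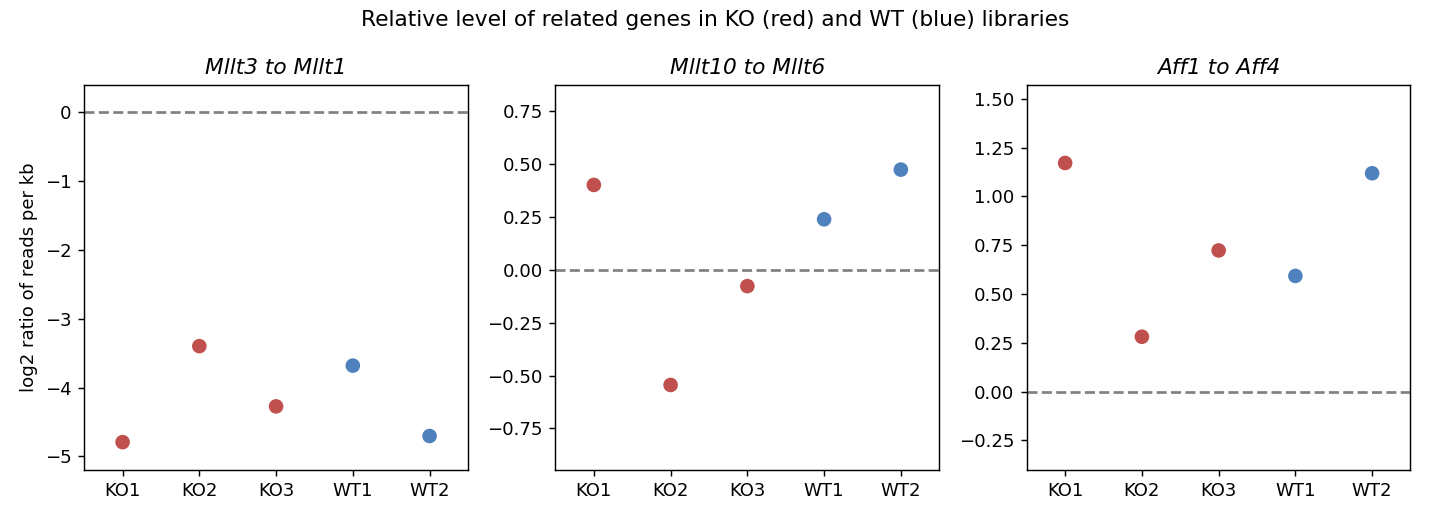
Log2 ratio of reads per kilobase within a library (y axis) for 3 pairs of related genes, in KO (red) and WT (blue) libraries. Mllt3 lies at -4.79 to -3.40 against Mllt1 in every deep library, and in no pair do the genotypes separate.

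Aff1 and Aff4 encode the AF4 family scaffolds of the super elongation complex, and AFF1 (AF4) is the commonest MLL partner in infant leukaemia. Aff1 (chromosome 5, 103692374 to 103855322) stood at 146.9, 113.3 and 301.3 CPM in KO replicates 1, 2 and 3, against 303.2 and 125.1 CPM in WT replicates 1 and 2, with 3 reads in WT replicate 3. Aff4 (chromosome 11, 53350833 to 53421830) stood at 92.7, 132.6 and 259.6 CPM in KO, against 285.9 and 81.9 CPM in WT, with 5 reads in WT replicate 3. In both genes KO replicate 3 and WT replicate 1 were far above the other deep libraries, and the highest library was 2.68 times the lowest for Aff1 and 3.49 times for Aff4. Among 10168 genes, 81.6% and 90.7% had a smaller spread than Aff1 and Aff4.

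Between genotypes the scaffolds did not pass the test. The log2 fold change was -0.04 for Aff1 (SE 0.49, 95% interval -1.11 to 1.04) and -0.14 for Aff4 (SE 0.52, interval -1.28 to 1.00), each with adjusted p = 1 by edgeR. These values followed single libraries. Without WT replicate 1 they were 0.73 and 0.83, without KO replicate 3 -0.55 and -0.64, and without KO replicate 1 0.13 and 0.15. Without KO replicate 2 Aff1 was at 0.23. The ratio of Aff1 to Aff4 per kilobase was 2.25, 1.22 and 1.65 in KO and 1.51 and 2.17 in WT (exact two-sided permutation p = 1, smallest possible 0.2). The mean log2 ratio was 0.73 in KO and 0.86 in WT, and the sign of their difference of -0.13 turned without KO replicate 2 (0.09) or WT replicate 2 (0.13).

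Ell (chromosome 8, 70539457 to 70592858) encodes an elongation factor that suppresses pausing of polymerase II. It stood at 63.2, 92.1 and 43.3 CPM in KO, against 43.5 and 62.6 CPM in WT, with 4 reads in WT replicate 3. KO over WT gave a log2 fold change of 0.18 (SE 0.41, adjusted p = 1 by edgeR), and it was -0.05 without WT replicate 1 and -0.13 without KO replicate 2. The pattern of Ell ran against that of the scaffolds, with KO replicate 3 and WT replicate 1 lowest.

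Cdk9 (chromosome 2, 32705784 to 32713076), the kinase of P-TEFb, had the highest mean level per kilobase of the 10 over the deep libraries, though it was above Aff1 in only 3 of 5. It stood at 144.4, 187.6 and 108.0 CPM in KO, against 108.9 and 148.4 CPM in WT, with 3 reads in WT replicate 3. For Cdk9 the log2 fold change was 0.25 (SE 0.36, 95% interval -0.53 to 1.03, adjusted p = 1 by edgeR), 0.04 without KO replicate 2 and 0.50 without WT replicate 2. Ccnt1 (chromosome 15, 98538689 to 98570923), the cyclin T1 subunit that activates CDK9, stood at 70.9, 77.8 and 89.1 CPM in KO, against 99.0 and 68.5 CPM in WT, with 2 reads in WT replicate 3. For Ccnt1 it was -0.04 (SE 0.32, interval -0.75 to 0.67, adjusted p = 1 by edgeR), and it was 0.29 without WT replicate 1 and 0.04 without KO replicate 1.

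**Figure D3:**
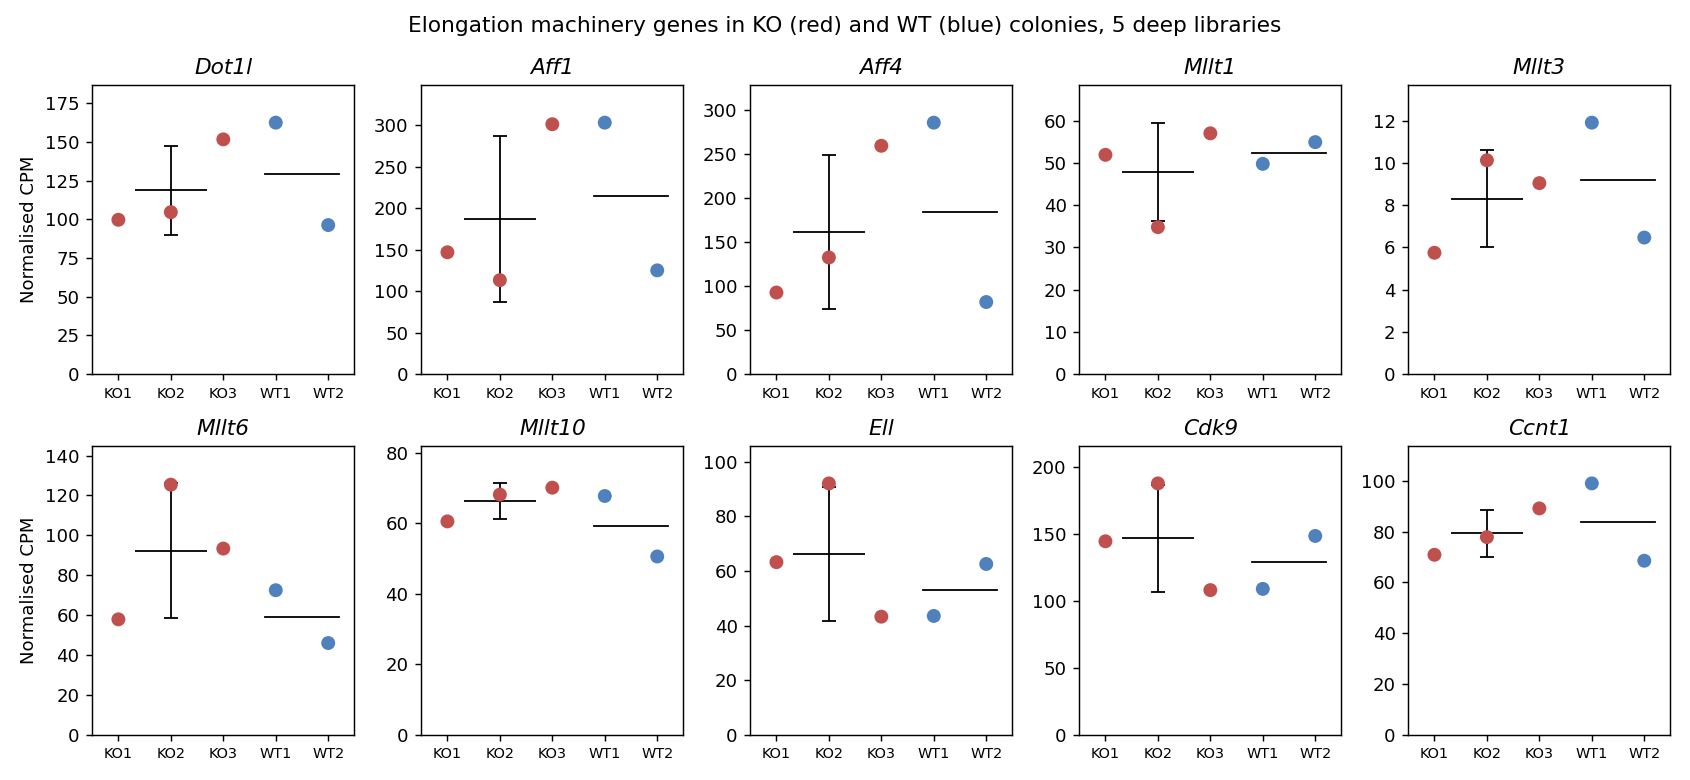
Normalised CPM (y axis) of the 10 genes in 3 KO libraries (red) and the 2 deep WT libraries (blue). Black lines are the mean of each genotype and the KO bars its SD (n = 3). KO3 and WT1 are high together for Aff1, Aff4 and Dot1l, and low together for Ell and Cdk9.

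Per kilobase of exon, Mllt3 stood apart from the other 9 members on the low side. Mean levels over the 5 deep libraries were 30.3 CPM per kb for Cdk9, 20.9 for Aff1, 19.6 for Ell, 14.1 for Dot1l, 12.7 for Aff4 and for Mllt1, 10.7 for Mllt10, 10.6 for Mllt6, 8.85 for Ccnt1 and 0.721 for Mllt3. Each neighbouring pair in that order overlapped in range except Ccnt1 and Mllt3. Ccnt1 ranged from 7.49 to 10.8 and Mllt3 from 0.478 to 0.992 CPM per kb, and Ccnt1 was the higher in 5 of 5 libraries. Among 12271 genes with a length, Mllt3 stood above 8.94% and Cdk9 above 85.2% in level per kb, with the other 8 between 56.5% and 78.2%.

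Libraries of the same genotype differed in most members. Of the 10, 8 were higher in KO replicate 3 than in KO replicate 1, beside 49.8% of the genes tested. In WT replicate 1, 7 were higher than in WT replicate 2, beside 49.7%. These shares are over genes of all lengths, and the KO pair leaves out KO replicate 2. Ell and Cdk9 ran the opposite way in both genotypes, and Mllt1 was at 0.13 on the log2 scale between the KO libraries and at -0.14 between the WT libraries. The difference between those 2 WT libraries exceeded the fitted difference between genotypes for 9 of 10 members, beside 79.7% of the genes tested. Together the 10 genes took 0.0794%, 0.0848% and 0.115% of gene reads in KO replicates 1, 2 and 3, against 0.116% and 0.0726% in WT replicates 1 and 2. In WT replicate 3 they held 18 reads (exact 95% interval 10.7 to 28.4), where the level of WT replicate 1 would give 40.3 and that of WT replicate 2 would give 24.8.

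**Figure D4:**
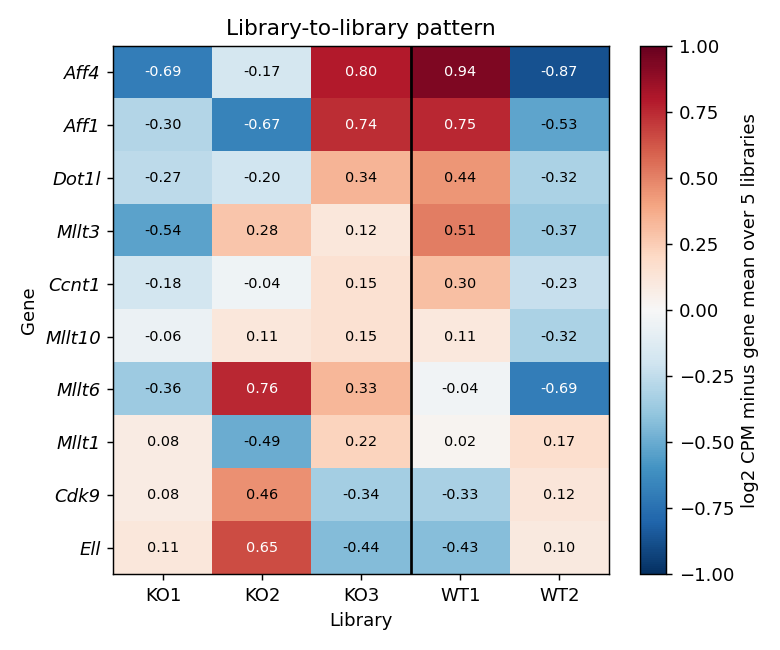
Log2 CPM of each gene (rows) in each deep library (columns, KO left of the line and WT right of it) after subtraction of the gene's mean over the 5 libraries. Red is above and blue below that mean. KO3 and WT1 are red for Aff4, Aff1 and Dot1l and blue for Cdk9 and Ell, and KO2 is reddest for Mllt6, Ell and Cdk9.

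Ell and Cdk9 had the most alike pattern of any pair of members. Their log2 CPM, centred over 5 libraries, differed by a root mean square of 0.109. Mllt10 and Ccnt1 followed at 0.132, and Dot1l was nearest to Ccnt1 at 0.136. The other nearest partners were Ccnt1 for Mllt3 (0.245) and for Mllt1 (0.319), Dot1l for Aff1 (0.325), Aff1 for Aff4 (0.333) and Mllt10 for Mllt6 (0.373). By this measure the paralogs Mllt1 and Mllt3 were each nearer to Ccnt1 than to one another. The measure favours genes that vary little, and the highest deep library of Ccnt1 was 1.44 times its lowest. Nearness to Ccnt1 therefore need not mean that 2 genes rose and fell together. Among 9057 genes with a mean of at least 10 CPM, the nearest to Dot1l outside the members were Pik3ca (0.0232), the catalytic subunit of PI3 kinase, Virma (0.0383), a subunit of the m6A methyltransferase complex, and Noc3l (0.0384), a ribosome assembly factor. Pik3ca stood at 58.4, 59.0 and 88.9 CPM in KO and at 95.9 and 55.6 CPM in WT.

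The same libraries differed by gene length across all genes. Coding genes with under 2 kb of exon took 21.1%, 18.1% and 13.9% of the reads of nuclear coding genes in KO replicates 1, 2 and 3, and 14.6% and 22.3% in WT replicates 1 and 2. Those of 8 kb and more took 16.3%, 17.0% and 21.1% in KO and 21.5% and 14.5% in WT. KO replicate 3 and WT replicate 1 thus held more of their reads on long genes. For KO replicate 2 over KO replicate 1 the median log2 ratio was -0.02 in genes of 8 kb and more and 0.08 under 2 kb. In genes of 8 kb and more the median log2 ratio was 0.37 for KO replicate 3 over KO replicate 1 and 0.56 for WT replicate 1 over WT replicate 2, and under 2 kb it was -0.40 and -0.70.

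Ccnt1 lay near the median of its length class, and the scaffolds lay far above it. Ccnt1, with 9157 bases of exon, was at 0.33 and 0.53 in those comparisons, and Dot1l, with 8705 bases, at 0.60 and 0.75. Mllt3, with 12004 bases, was at 0.65 and 0.88. Aff4, with 13450 bases, was at 1.48 and 1.80, and 3.17% and 5.23% of 1894 long genes stood higher. Aff1, with 9458 bases, was at 1.04 and 1.28, with 11.1% and 14.9% above it. Cdk9 and Ell, with 4611 and 3108 bases, were at -0.42 and -0.55 between the KO libraries and at -0.45 and -0.52 between the WT libraries, below the medians of their classes (0.04 and -0.12 in KO, 0.04 and -0.24 in WT).

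**Figure D5:**
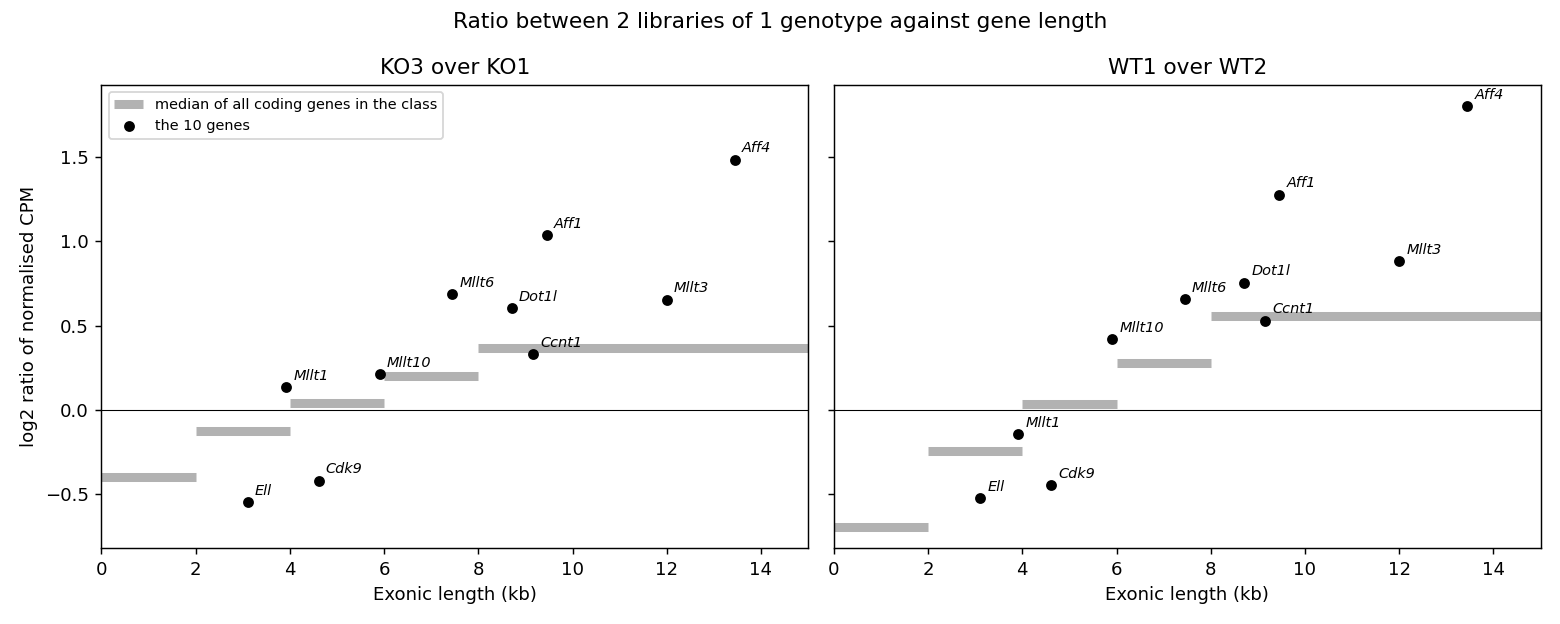
Log2 ratio of normalised CPM between 2 libraries of 1 genotype (left KO3 over KO1, right WT1 over WT2) against exonic length in kb. Black points are the 10 genes, and grey bars the median of all coding genes in a length class (the last class, 8 kb and more, is drawn to 15 kb). Aff1 and Aff4 lie above the long-gene median on both sides, and Ell and Cdk9 below theirs.

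Markers of cell types also varied between libraries. Elane, the neutrophil elastase, stood at 1289, 316.4 and 246.4 CPM in KO replicates 1, 2 and 3 and at 266.5 and 2239 CPM in WT replicates 1 and 2. Mpo, the myeloperoxidase, stood at 2774, 843 and 558.6 CPM in KO and at 720 and 3036 CPM in WT. Csf1r, the receptor of macrophage growth factor, stood at 158.1, 168.8 and 442.3 CPM in KO and at 485.1 and 132.6 CPM in WT. The 10 monocyte and macrophage markers summed to 8861, 5694 and 13310 CPM in KO and 13460 and 6210 CPM in WT. The 11 mast cell and basophil markers summed to 3379, 10250 and 4421 CPM in KO and 5851 and 5112 CPM in WT. This sum was highest in KO replicate 2, where Mllt6, Ell and Cdk9 were highest. Kit, the stem cell factor receptor, stood at 112.3, 102.4 and 250.5 CPM in KO and at 246.4 and 109.4 CPM in WT, and Cpa3, a mast cell protease, at 1156, 3453 and 2606 CPM in KO and at 2488 and 854.3 CPM in WT. Kit and Csf1r were high in KO replicate 3 and WT replicate 1, where Aff1 and Aff4 were high. Mpo and Elane were low in those libraries and in KO replicate 2. Cd68, a macrophage lysosomal protein, stood at 314.4, 486.5 and 564.4 CPM in KO and at 453.1 and 230.5 CPM in WT. KO replicate 2 thus exceeded WT replicate 1 in Cd68, and the mast cell and basophil sum did not follow Kit. Pf4, a platelet chemokine, stood at 225.5, 145.2 and 42.8 CPM in KO and at 56.8 and 258.5 CPM in WT, and Itga2b, a platelet integrin, at 299.5, 649.9 and 211.3 CPM in KO and at 267.3 and 278.5 CPM in WT. Erythroid markers summed to 35.0 to 141.4 CPM in KO and to 47.5 and 153.7 CPM in WT, megakaryocyte markers to 306.1 to 860.9 CPM in KO and to 403.3 and 713.8 CPM in WT, and stromal and endothelial markers to 139.0 to 192.2 CPM in KO and to 141.4 and 253.1 CPM in WT. The part of gene length and of cell type in the members' levels was not tested.

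Xist, the RNA that silences an X chromosome in female cells, was read in only some libraries. It had 12107, 1 and 0 reads in KO replicates 1, 2 and 3 and 1, 5910 and 0 reads in WT replicates 1, 2 and 3. KO replicate 1 and WT replicate 2, the libraries that read Xist, had the lowest Aff4 of the deep libraries. Aff1 was lowest in KO replicate 2, which held 1 Xist read and was the deep library rich in mitochondrial reads. Dot1l in KO replicate 2 stood nearer to the libraries that read Xist than to KO replicate 3 and WT replicate 1. Between the libraries that read Xist, the log2 difference of KO minus WT was 0.23 for Aff1, 0.18 for Aff4, 0.05 for Dot1l and -0.04 for Cdk9, with 1 library on each side and no test. Among the deep libraries with at most 1 Xist read, KO replicates 2 and 3 against WT replicate 1, it was -0.71, -0.62, -0.37 and 0.39. Mllt6 was at 0.33 in the first set and 0.58 in the second, and Ell at 0.02 and 0.54. The part of Xist status in the members' levels was not tested.

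Reads on the opposite strand also varied by library. For Dot1l they made up 5.31%, 5.03% and 1.59% of stranded reads in KO replicates 1, 2 and 3, against 1.84% and 4% in WT replicates 1 and 2. Within the gene lies an annotated antisense gene, Gm17151, with no shared exon. For Ccnt1, whose exons overlap the antisense gene 9330020H09Rik by 695 bases, the shares were 4.76%, 4.84% and 1.39% in KO and 1.87% and 4.37% in WT. KO replicate 3 and WT replicate 1 were the low libraries for both genes, and the genotypes overlapped. These libraries also had the fewest opposite-strand reads over all genes. The counted strand held 97.53% of stranded gene reads in each, against 97.13% and 96.25% in KO replicates 1 and 2 and 96.95% in WT replicate 2. Mllt10 had 2.12% to 2.71% in KO and 2.51% and 3.18% in WT. Mllt1 had 0 such reads, and the other 6 members had at most 16 in any deep library.

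No gene of the wider elongation machinery passed the test, and 0% of all 12292 genes tested did. A count of 0 is therefore not particular to any list below. Of 8 tested relatives and partners of the members (out of 10) 0 passed the edgeR test in either direction, with a median log2 fold change of -0.07. Ell3 and Eaf2 were too scarce to test, with at most 3 and 7 reads in a library. The lowest p belonged to Aff3, a scarce AF4 family gene with 16, 12 and 11 reads in KO and 22, 34 and 0 reads in WT (log2 fold change -0.94, SE 0.59, adjusted p = 1 by edgeR). Ccnt2, which encodes the other cyclin T, was at 0.38 (SE 0.35) and Cdk13, a polymerase II kinase, at 0.12 (SE 0.43). Ccnt2 stood at 92.4, 110.9 and 85.0 CPM in KO and 91.9 and 65.3 CPM in WT.

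Of the 9 genes that hold or recruit P-TEFb, 0 passed, beside 0% of all genes tested, with a median of -0.14. HEXIM proteins keep P-TEFb inactive on a small nuclear RNA, and MEPCE caps that RNA. Hexim2 was at -0.67 (SE 0.53), Mepce at -0.32 (SE 0.36) and Hexim1 at -0.25 (SE 0.30). Hexim1 stood at 63.7, 60.3 and 71.7 CPM in KO, below both deep WT libraries at 79.03 and 79.99 CPM, though it did not pass (adjusted p = 1 by edgeR). All 3 KO libraries lay below both in 3.87% of all genes tested, and Hexim1 was named for its low p.

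Of 14 pausing and elongation factors 0 passed, beside 0% of all genes tested (median -0.01). Nelfe was at -0.39 (SE 0.39) and Nelfcd at -0.21 (SE 0.35), both subunits of the pausing factor NELF. Zc3h8 of the little elongation complex was at 0.41 (SE 0.49). Of 10 genes of the PAF1 complex and H2B ubiquitination, a mark that stimulates DOT1L, 9 had negative values and 0 passed (median -0.07). Ube2a, the ubiquitin-conjugating enzyme, was at -0.35 (SE 0.37), Ctr9 of PAF1 at -0.34 (SE 0.35) and the ligase gene Rnf20 at -0.19 (SE 0.34). The 9 of 10 compares with 48% of all genes.

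Of 20 other MLL fusion partners, which are not elongation proteins, 0 passed, beside 0% of all genes tested, and the median was -0.0048. Tet1, which oxidises methylcytosine, was at -0.69 (SE 0.65), Afdn, a junction protein also called AF6, at 0.53 (SE 0.53) and Arhgef12 at 0.43 (SE 0.48). Of 8 relatives by YEATS or PHD domain 0 passed (median 0.10), with Brpf3 at 0.54 (SE 0.37), Yeats2 at 0.23 (SE 0.37) and Jade3 at -0.30 (SE 0.52). Brpf3, a scaffold of a histone acetyltransferase complex, stood at 46.9, 57.3 and 44.3 CPM in KO, above both deep WT libraries at 39.99 and 31.8 CPM (adjusted p = 1 by edgeR). All 3 KO libraries lay above both in 4.79% of all genes tested, and Brpf3 was likewise named for its low p.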

How the data were processed

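Per the labels, poly(A) RNA went through the TruSeq Stranded mRNA kit before Illumina sequencing. The authors deposited raw counts of reads for each gene in 7 run files laid out like STAR's gene counts, and the submitters' processing notes name STAR 2.5.1b, GRCm38 and DESeq2. Sources used here do not give an annotation release.

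Counts on the strand opposite to the read were used, as the kit reverses the strand, and held 95.6% to 97.5% of stranded gene reads. The 4 lines that name no gene were left out, and held 25.6% to 47.8% of reads. Both runs of WT replicate 3 (27351 and 558 gene reads) were summed. Of 46983 genes, 46488 matched GENCODE M21, which gave symbols, coordinates and exonic lengths (union of exons).

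After filterByExpr and TMM scaling, edgeR 4.0.16 tested each gene (robust glmQLFit, glmQLFTest, two-sided, genotype only), with Benjamini-Hochberg adjustment over 12292 genes and a threshold of 0.05. SE is the log2 fold change over the root of F. Ratios used an exact permutation test over the 5 libraries of at least 1000000 gene reads. Alternatives used DESeq2 1.42.0, limma 3.58.1 and other scalings, filters, strands, runs and libraries. The 10 genes, the lists and the rule for named genes (per list the 3 of lowest p, per marker list the first 2, for Dot1l the 3 genes of most alike pattern) were chosen with earlier results of these data known. Dnajc1, Xist, the antisense genes and the length classes were chosen after values were seen, and markers not named, among them the first genes of lists with low sums, are given within sums. 1 of them is not reported here.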

Additional observations from a re-analysis of the deposited data

How the results depend on the processing

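No alternative called any of the 10 members: their lowest adjusted p over 19 alternatives was 0.795. Mllt6 (0.35 to 1.20) and Mllt10 (0.10 to 0.51) were positive in all 19. Signs turned for Mllt1 with DESeq2 size factors (0.0079), without a filter (0.0122) and by DESeq2 (0.0819), for Aff1 by DESeq2 (0.0212), and for Dot1l by limma-voom (-0.0638) and with WT replicate 3 reduced to its second run (-0.0479). With neither WT replicate 3 nor KO replicate 2, a choice made once values were known, Dot1l was at -0.0470, Aff1 at 0.0601, Mllt1 at 0.0527 and Cdk9 at -0.0312. Leaving out each library gave -0.13 to 0.61 for Dot1l, -0.55 to 0.73 for Aff1, -0.64 to 0.83 for Aff4, -0.14 to 0.16 for Mllt1, -0.42 to 0.47 for Mllt3, -0.13 to 0.45 for Ell, 0.04 to 0.50 for Cdk9, -0.19 to 0.29 for Ccnt1, -0.47 to 0.55 for the Mllt3 to Mllt1 ratio, -0.67 to -0.19 for Mllt10 to Mllt6 and -0.39 to 0.13 for Aff1 to Aff4. With all 6 libraries and 0.5 reads added, those ratios differed by -0.82, -0.95 and 0.20. In WT replicate 3 Mllt1 and Mllt3 held 0 reads each, so their ratio there came from the added reads and exon lengths alone. The Mllt10 to Mllt6 ratio of that library rested on 1 and 0 reads. The -0.82 and -0.95 are therefore no measure of a difference over 6 libraries. The cause of the other turns in sign was not tested.

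Genes called over the whole table, 0 by edgeR, were 4 at a threshold of 0.1, 2 with library size scaling, 9 without a filter, 1 by DESeq2, 13 with that second run and 0 to 5 without each library. Replicate numbers showed no sign of pairing the samples. Deviations of same-numbered libraries from their group mean correlated at -0.285, -0.119 and -0.242 over 6143 genes. No library correlated best with its own number (the highest was WT replicate 1 with KO replicate 3 at 0.475). The shallow WT replicate 3 enters the mean behind each WT deviation, so this check cannot exclude a pairing. With the number as a replicate block, 13 genes were called and Psip1 was at -2.33 (adjusted p = 0.048). Psip1 also passed without a filter (-2.28), with the second run (-2.25) and with a term for the libraries that read Xist (-2.34, also chosen later, 4 genes called). Members' log2 fold changes were -0.12 to 0.83 with the block. Depth limits WT replicate 3, in which 4 members had 0 reads.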
